A study of Mus musculus with 63 samples.

Results

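Atp12a, Adcyap1, Wnt10a, Akr1b7, Ces2a, Sema3d and Cacna1c are 7 of the 34745 genes in the ovary expression table of a mouse stress study. They were chosen by their measured folds, as transcripts lower in stressed than in control ovaries in several sets of samples. Not all 7 genes differed by much, with mean log2 folds over the 4 sets from -3.81 (Atp12a) to -0.57 (Cacna1c). Each was found in the table by its name, and all 7 were among the 17766 ovary genes that passed the filter on low counts. Their ovarian folds under stress are therefore a description of how they were chosen, are given with no test, and support nothing further.

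The study profiled bulk RNA of the ovary and the pituitary in female C57BL/6 mice. Stressed mice underwent CUMS (chronic unpredictable mild stress), in which mild stressors of several kinds follow each other without a fixed order, and controls did not. Mice labelled 2 or 6 months were stressed for 8 or 12 weeks, which gives 4 sets per tissue, named 2M-8W and 2M-12W for the younger and 6M-8W and 6M-12W for the older mice. Every set had 4 stressed and 4 control libraries, apart from the 6M-12W ovaries, with 4 stressed and 3 control libraries. Nothing in the sources used here says that libraries of a group came from separate animals, so p-values measure the spread between these samples, which may be technical. No label gives the stage of the estrous cycle or the batch of a library, and a batch that follows the sets or arms cannot be told apart from them.

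The ovary passes through follicle growth, ovulation and the life of the corpus luteum in each cycle. A surge of luteinizing hormone (LH) acts on the LH receptor, raises cyclic AMP in granulosa cells of the largest follicles, and switches on a short-lived set of transcripts before the egg is released. Ptgs2, which encodes the prostaglandin-forming enzyme COX-2, belongs to that set, and Lhcgr, the LH receptor gene, is transcribed in theca, mature granulosa and luteal cells. Adcyap1 encodes the neuropeptide PACAP, which in the rodent ovary is made by granulosa cells after the LH surge. Wnt10a encodes a secreted Wnt ligand, and Akr1b7 an aldo-keto reductase that handles lipid aldehydes and is best known from mouse vas deferens and adrenal cortex. Atp12a encodes the catalytic subunit of the non-gastric proton-potassium pump. Ces2a encodes a carboxylesterase of the endoplasmic reticulum. Sema3d encodes a secreted semaphorin that guides axons and vessels, and Cacna1c the pore of the L-type calcium channel Cav1.2.

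Promoters were taken from the RefSeq table of build GRCm38.p6, in windows of 300 bases that run from 250 before to 50 after a start site. The table held 5 of the 7 genes, and Atp12a and Wnt10a were not among them. Windows of 3 genes are shown because Adcyap1 and Akr1b7 varied together from library to library while Ces2a followed Lhcgr (results further on). Capitals mark the motifs found on either strand. They are the cyclic AMP response element half-site TGACG in Adcyap1 and, in Akr1b7, the site AAGGTCA bound by nuclear receptors of the NR5A family (read here on the other strand as TGACCTT) and the steroid receptor half-site TGTTCT.
Adcyap1, second of 2 start sites, chr17:93198918-93199217, plus strand: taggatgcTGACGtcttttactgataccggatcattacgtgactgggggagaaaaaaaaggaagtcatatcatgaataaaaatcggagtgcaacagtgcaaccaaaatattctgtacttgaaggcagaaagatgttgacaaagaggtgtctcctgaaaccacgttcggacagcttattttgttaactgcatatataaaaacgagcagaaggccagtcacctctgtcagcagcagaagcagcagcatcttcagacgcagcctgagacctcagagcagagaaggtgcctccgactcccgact
Akr1b7, chr6:34412112-34412411, plus strand: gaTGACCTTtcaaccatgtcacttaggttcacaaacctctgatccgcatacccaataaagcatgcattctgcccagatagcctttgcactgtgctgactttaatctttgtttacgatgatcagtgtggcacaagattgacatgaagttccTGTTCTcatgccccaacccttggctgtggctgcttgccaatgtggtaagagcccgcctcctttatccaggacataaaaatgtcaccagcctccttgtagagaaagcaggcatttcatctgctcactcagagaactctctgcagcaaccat
Ces2a, chr8:104733753-104734052, plus strand: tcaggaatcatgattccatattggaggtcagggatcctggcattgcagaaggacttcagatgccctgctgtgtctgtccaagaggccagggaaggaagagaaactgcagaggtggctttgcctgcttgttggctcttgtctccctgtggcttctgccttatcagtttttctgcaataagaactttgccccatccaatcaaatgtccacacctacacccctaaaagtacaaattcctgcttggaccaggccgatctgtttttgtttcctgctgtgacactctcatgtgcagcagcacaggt
The half-site TGACG begins 242 bases before the Adcyap1 start shown and 91 bases before its other start. It also lies in the windows of Sema3d, of 1 of the 3 Cacna1c starts and of Ptgs2. It occurs in 20.8% of all 32851 windows of this length in the table. The Akr1b7 matches begin 248 and 100 bases before its start, and these motifs occur in 4.72% and 19.0% of windows. The steroid receptor half-site also lies in the window of another Cacna1c start, on both strands, and in that of Lhcgr. The searches for the full element TGACGTCA (1.79% of windows), the AP-1 site TGANTCA (7.81%) and the GATA site AGATAA (11.2%) had no match in any window of the members, and the Ces2a window held none of the 6 motifs. Matches are letters in a sequence and say nothing of binding.

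The 31 ovary libraries held 12536371 to 28777668 counts each, and the 32 of the pituitary 13514270 to 24924584. With edgeR 6.26% of the 17766 ovary genes passed the test of stress in the 2M-8W set and 6.74% in the 2M-12W set, and in the older mice 1.12% passed after 8 weeks and 11.4% after 12 weeks. In the pituitary 0.424% of genes passed in 2M-8W and 0.582% in 2M-12W. Some ovaries held transcripts of neighbouring or other tissue. The summed level of 6 oviduct epithelium markers was 2130 CPM in the 2M-8W stressed ovary 1 and 228 CPM in stressed ovary 3 of that set. The medians were 21.6 CPM over stressed and 20.5 CPM over control ovaries, and the highest control ovary had 357 CPM. Pituitary markers summed to 1501 CPM in 2M-12W control ovary 1. Adipocyte markers reached 380 CPM in 2M-12W stressed ovary 2 and up to 227 CPM in control ovaries. Without the 2M-8W stressed ovaries 1 and 3 every member kept the direction of its 2M-8W difference, with folds of -5.28 (Ces2a) to -0.48 (Cacna1c) on the log2 scale. In bulk tissue fewer cells of a type and less RNA per cell cannot be told apart.

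Levels are given in CPM, read counts divided by the scaled library size, and differences as log2 folds of stressed over control ± SE. In the mean of the 4 sets the median log2 fold of all tested ovary genes was 0.01. Atp12a, at -3.81 ± 0.32, had the 7th lowest fold of the 17766 genes. Ces2a stood at -3.53 ± 0.65, Adcyap1 at -3.36 ± 0.47 and Wnt10a at -3.10 ± 0.40. Akr1b7 (-1.87 ± 0.39) and Sema3d (-1.64 ± 0.35) followed, and Cacna1c had the smallest difference of the 7, at -0.57 ± 0.06, with 791 genes lower than it. Every stressed library lay below every control in 5 of the 7 members in 2M-8W, where 4.23% of all tested genes did so. The members counted this way were 4 in 2M-12W (5.75% of genes), 3 in 6M-8W (5.57%) and 6 in 6M-12W (16.1%). Atp12a and Cacna1c were separated like this in all 4 sets, as were 0.163% of genes. These shares come from the contrasts that chose the genes, and nothing is read from them.

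**Figure D1:**
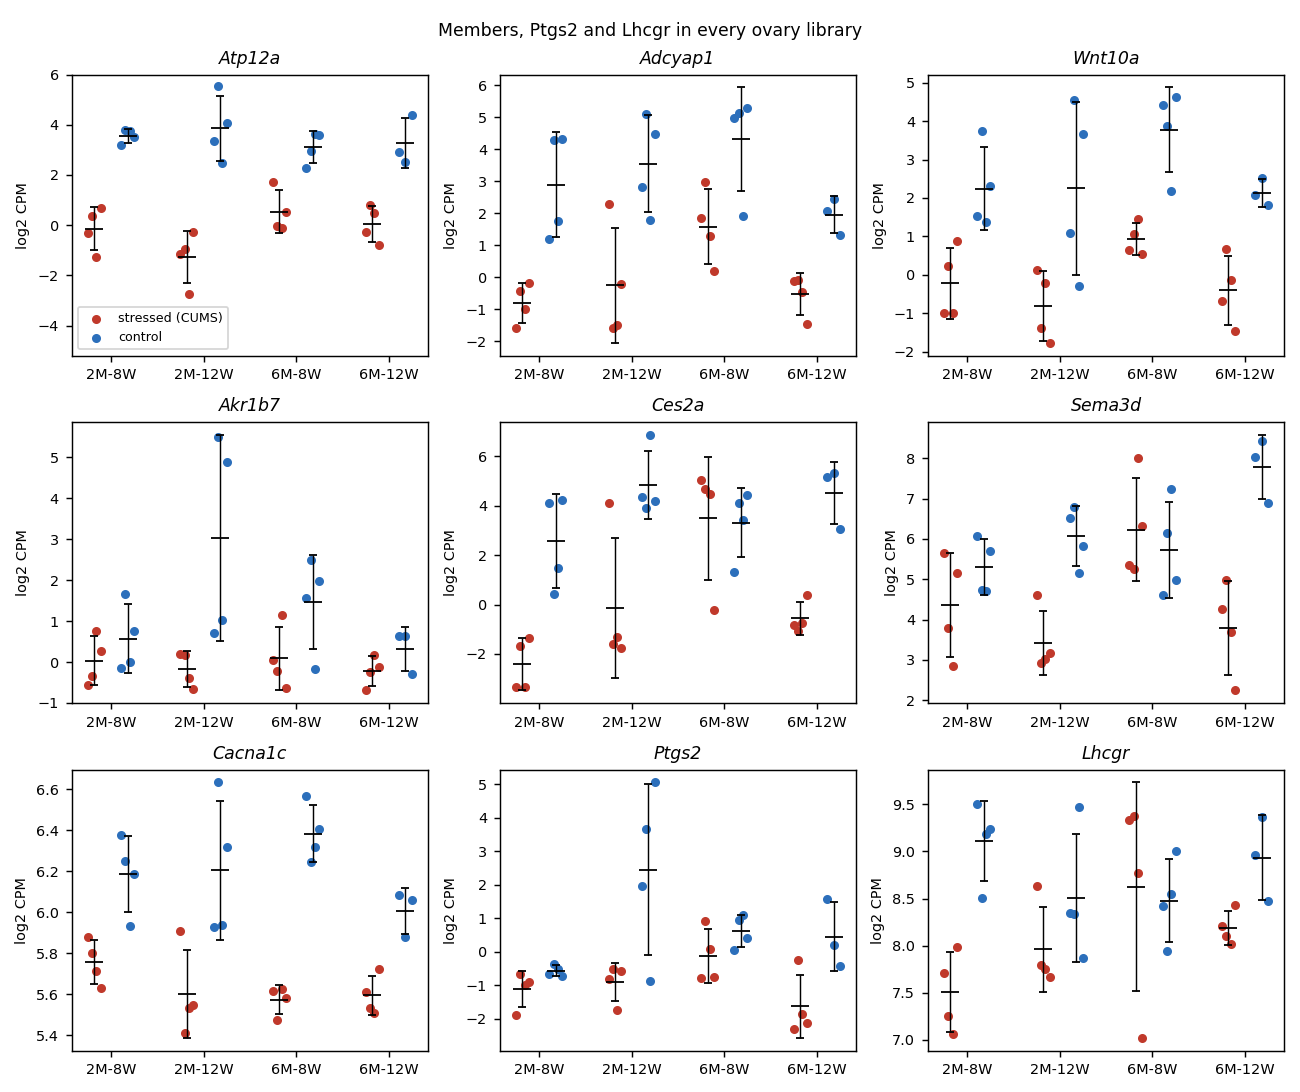
Level of each of the 7 genes, of Ptgs2 and of Lhcgr (y axis, log2 CPM) in the 4 ovary sets (x axis), with 1 point per library, stressed ovaries in red at the left of each pair and controls in blue at the right. Black bars show the group mean ± SD. Atp12a and Cacna1c have no overlap of arms in any set, whereas Adcyap1, Akr1b7, Ces2a, Sema3d, Ptgs2 and Lhcgr overlap in 6M-8W.

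Adcyap1 (chromosome 17, 93199422 to 93205485 in GRCm38, plus strand) was at 0.232, 0.639, 0.400 and 0.773 CPM in 2M-8W stressed ovaries, against 2.20, 19.2, 3.27 and 19.7 CPM in controls. In 2M-12W it was at 4.75, 0.233, 0.254 and 0.770 CPM in stressed ovaries and at 6.96, 34.1, 3.37 and 22.1 CPM in controls. The controls of both sets fell into high and low libraries, and stressed ovary 1 of 2M-12W reached into the control range. In 6M-8W the PACAP transcript was at 3.49, 7.83, 2.33 and 1.04 CPM in stressed ovaries, against 31.3, 34.5, 3.62 and 38.6 CPM in controls. For 6M-12W the values were 0.830, 0.841, 0.629 and 0.260 CPM in stressed ovaries, against 4.11, 5.36 and 2.41 CPM in controls. Controls of 6M-8W averaged 27.0 ± 15.9 CPM (SD, n = 4), the highest group mean, and those of 6M-12W 3.96 ± 1.48 (n = 3), and all but 1 of the 6M-8W controls exceeded each 6M-12W control. That 1 low 6M-8W control, number 3, lay within the stressed range, and the arms of 6M-12W did not overlap. The folds were -4.39 ± 1.01, -3.52 ± 0.89, -2.89 ± 0.84 and -2.63 ± 0.996 in the sets in that order. Without stressed ovary 1 the 2M-12W fold was -5.28 and without control 2 it was -2.89, and without stressed ovary 2 the 6M-8W fold was -3.54.

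Wnt10a (chromosome 1, 74791516 to 74804179, plus strand) stood at 0.406, 1.07, 0.400 and 1.74 CPM in 2M-8W stressed ovaries and at 2.79, 13.3, 2.48 and 4.84 CPM in controls. The 2M-12W values were 0.996, 0.280, 0.761 and 0.192 CPM in stressed ovaries, against 2.02, 23.5, 0.713 and 12.6 CPM in controls. Control 3 of 2M-12W lay within the stressed range, and this was the only set in which the arms of Wnt10a overlapped. The 6M-8W stressed ovaries had 1.46, 1.99, 2.62 and 1.34 CPM, and the controls 21.5, 14.5, 4.46 and 24.4 CPM. In 6M-12W stressed ovaries it was at 0.519, 1.49, 0.809 and 0.260 CPM, against 4.11, 5.64 and 3.40 CPM in controls. The controls with a high Wnt10a level were largely those with a high Adcyap1 level, namely control 2 of 2M-8W, controls 2 and 4 of 2M-12W and controls 1, 2 and 4 of 6M-8W. Folds were -2.64 ± 0.80, -4.15 ± 0.85, -3.13 ± 0.76 and -2.50 ± 0.83. Without control 2 of its set the 2M-8W fold was -1.86 and the 2M-12W fold -3.22.

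Akr1b7 (chromosome 6, 34412334 to 34423142, plus strand) was low in most ovaries and differed by set. Its 2M-8W levels were 0.580, 0.693, 1.60 and 1.11 CPM in stressed ovaries and 0.804, 3.09, 0.908 and 1.60 CPM in controls, which overlapped. For 2M-12W they were 1.05, 1.03, 0.659 and 0.529 CPM in stressed ovaries, against 1.55, 45.5, 1.94 and 29.6 CPM in controls. Controls 2 and 4 set the size of this difference, and the other controls lay just above the stressed range. In 6M-8W stressed ovaries had 0.928, 0.760, 2.13 and 0.547 CPM, and controls 2.85, 5.49, 0.793 and 3.86 CPM. In 6M-12W the levels were 0.519, 0.747, 1.03 and 0.824 CPM in stressed ovaries and 1.47, 1.45 and 0.717 CPM in controls. In each 6-month set 1 control lay within the stressed range. The folds were -0.72 ± 0.79, -4.58 ± 0.81, -1.56 ± 0.75 and -0.62 ± 0.84 in set order. The 2M-12W fold was -3.74 without control 2. Akr1b7 has close relatives in sequence, and no source used here says how the authors' counting treated reads shared with them, so its level is uncertain to that extent.

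Atp12a (chromosome 14, 56365068 to 56388551, plus strand) was at 0.696, 1.17, 0.320 and 1.498 CPM in 2M-8W stressed ovaries, against 9.01, 13.8, 13.4 and 11.2 CPM in controls. The 2M-12W levels were 0.352, 0.420, 0.0507 and 0.721 CPM in stressed ovaries and 10.1, 46.6, 5.51 and 16.5 CPM in controls. Both sets showed a gap of several fold between the arms. In 6M-8W it was at 3.23, 0.877, 0.824 and 1.34 CPM in stressed ovaries, against 4.81, 7.68, 12.3 and 11.9 CPM in controls. The 6M-12W stressed ovaries had 0.726, 1.63, 1.30 and 0.477 CPM, and the controls 7.52, 5.61 and 20.8 CPM. The highest stressed ovary (6M-8W, number 1) stayed below the lowest control of any set, 4.81 CPM. Folds were -3.62 ± 0.63, -5.64 ± 0.71, -2.53 ± 0.59 and -3.44 ± 0.64. Without control 2 the 2M-12W fold was -4.75, without stressed ovary 1 the 6M-8W fold was -3.17, and without control 3 the 6M-12W fold was -2.64.

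Ces2a (chromosome 8, 104734003 to 104741634, plus strand) did not differ in 1 direction. In 2M-8W it had 0, 0.213, 0 and 0.290 CPM in stressed ovaries, where a count of 0 allows up to 0.174 and 0.240 CPM, against 17.2, 1.25, 2.66 and 18.8 CPM in controls. These limits stand for 3 counts and cover counting error only. In 2M-12W it was at 16.9, 0.233, 0.304 and 0.192 CPM in stressed ovaries and at 20.01, 14.9, 116 and 18.1 CPM in controls. Stressed ovary 1 was as high as the controls, and without it the fold of -3.30 ± 1.11 became -7.40 and that of the mean of the 4 sets -4.57. Without control 3, the library at 116 CPM, the 2M-12W fold was -2.03. In 6M-8W it was the stressed ovaries that held most of the high values, with 33.1, 25.3, 21.8 and 0.746 CPM, against 2.37, 16.9, 10.7 and 21.3 CPM in controls. In 6M-12W the levels were 0.467, 0.374, 0.494 and 1.21 CPM in stressed ovaries, against 35.6, 39.4 and 8.19 CPM in controls. The folds were -6.07 ± 1.66 in 2M-8W, 0.65 ± 1.01 in 6M-8W and -5.41 ± 1.34 in 6M-12W. Without stressed ovary 4 the 2M-8W fold was -6.85. Ces2 genes are a family of similar sequences, so reads could be split between them.

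Sema3d (chromosome 5, 12383385 to 12588948, plus strand) was at 49.8, 13.7, 7.13 and 35.8 CPM in 2M-8W stressed ovaries and at 67.5, 26.6, 25.9 and 52.2 CPM in controls, with overlap. In 2M-12W its levels were 24.2, 7.47, 8.01 and 8.90 CPM in stressed ovaries, against 90.9, 111, 35.5 and 56.8 CPM in controls. The arms of 2M-12W did not overlap. In 6M-8W the stressed ovaries were at 40.9, 38.1, 256 and 79.1 CPM and the controls at 24.2, 70.2, 149.5 and 31.4 CPM. The 6M-12W levels were 19.1, 31.5, 12.8 and 4.64 CPM in stressed ovaries, against 261, 344 and 119 CPM in controls, the highest control group of this gene. Folds were -0.68 ± 0.67, -2.61 ± 0.71, 0.59 ± 0.66 and -3.83 ± 0.76. The 6M-8W fold turned to -0.38 without stressed ovary 3, which held the 256 CPM, and was 1.31 without control 3.

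Cacna1c (chromosome 6, 118587240 to 119196418, minus strand) varied least between libraries. In 2M-8W it was at 58.7, 55.7, 52.4 and 49.4 CPM in stressed ovaries, against 82.9, 76.0, 61.0 and 72.8 CPM in controls. In 2M-12W stressed ovaries had 60.0, 42.5, 46.2 and 46.7 CPM, and controls 60.8, 99.1, 61.1 and 79.6 CPM. Stressed ovary 1 of 2M-12W lay just below the lowest control. In 6M-8W the values were 48.9, 44.3, 49.3 and 47.8 CPM in stressed ovaries and 94.7, 75.6, 79.6 and 84.8 CPM in controls. In 6M-12W they were 48.8, 46.2, 45.4 and 52.7 CPM in stressed ovaries, against 67.7, 58.7 and 66.7 CPM in controls. The group means of stressed ovaries spanned 47.6 to 54.1 CPM, and those of controls 64.4 to 83.7 CPM. Folds were -0.44 ± 0.12, -0.62 ± 0.12, -0.81 ± 0.13 and -0.41 ± 0.13. The summed level of 6 smooth muscle markers, a cell type in which this channel is prominent, was 1144 to 2502 CPM in stressed and 1252 to 2256 CPM in control ovaries, and its part in the result was not tested.

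Per length of transcript, on the authors' FPKM scale, the order of levels differed between the arms. Over the 16 stressed ovaries the means ± SD were 3.06 ± 4.64 for Sema3d, 1.99 ± 3.46 for Ces2a and 1.55 ± 0.161 for Cacna1c. Adcyap1 (0.755 ± 0.995), Akr1b7 (0.723 ± 0.328), Wnt10a (0.359 ± 0.242) and Atp12a (0.247 ± 0.186) came below. Over the 15 controls Sema3d (7.47 ± 6.94), Adcyap1 (7.33 ± 6.59) and Ces2a (7.19 ± 8.80) led. Then came Akr1b7 (5.28 ± 10.1), Atp12a (3.29 ± 2.57), Wnt10a (3.27 ± 2.91) and Cacna1c (2.29 ± 0.386). Neighbours in either order differed by less than the SD of at least 1 of them, except Akr1b7 and Wnt10a in stressed ovaries.

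**Figure D2:**
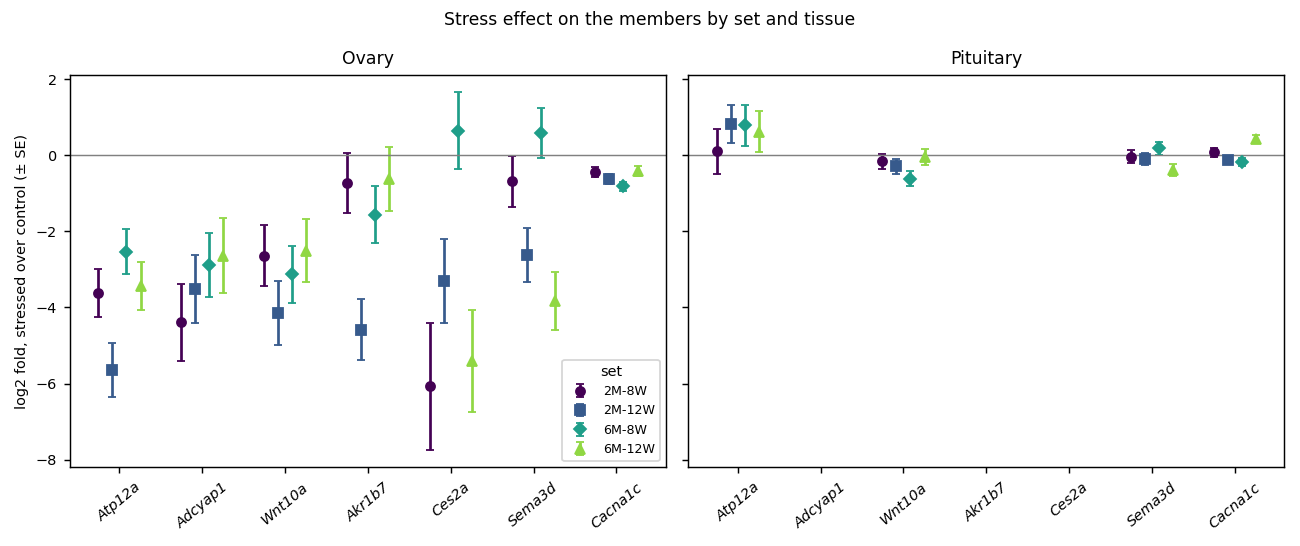
Difference between stressed and control libraries for the 7 genes (x axis) as log2 fold, stressed over control, ± SE (y axis), in ovary (left) and pituitary (right), with 1 symbol per set. Ovary folds run from -6.07 for Ces2a in 2M-8W to 0.65 for Ces2a in 6M-8W, and the 4 genes tested in the pituitary lie between -0.62 and 0.84.

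The same measure in the pituitary was not used to choose the genes. There 4 of the 7 passed the filter on low counts, and 0 of these 4 passed edgeR's quasi-likelihood test in the mean of the 4 sets, in which 6.44% of 17001 genes did. At an unadjusted p under 0.05 there were 2, Wnt10a and Atp12a, and DESeq2 called 0. Wnt10a was at 7.93 to 19.3 CPM in stressed pituitaries (median 14.5) and at 11.7 to 23.2 CPM in controls (median 16.3), with a log2 fold of -0.27 ± 0.10 (edgeR, adjusted p = 0.101; below the control mean of log2 CPM in 12 of 16 stressed libraries). Its call depended on the setting, since the adjusted p was 0.0366 without 6M-8W stressed pituitary 4. Atp12a was at 0.501 to 2.66 CPM in stressed pituitaries and at 0 to 1.66 CPM in controls, with a fold of 0.59 ± 0.27 (edgeR, adjusted p = 0.223; below the control mean in 2 of 16). Sema3d had a fold of -0.08 ± 0.08 (adjusted p = 0.667 in edgeR) and Cacna1c of 0.05 ± 0.05 (adjusted p = 0.676 in edgeR). In a single set the lowest adjusted p values of edgeR were those of Wnt10a in 6M-8W (-0.62 ± 0.20, adjusted p = 0.0702), where 4.70% of genes passed, and of Cacna1c in 6M-12W (0.43 ± 0.11, adjusted p = 0.0943), where 0.276% did. DESeq2 called both, with adjusted p of 0.0330 and 0.0430. Adcyap1 reached at most 1.24 CPM, Akr1b7 0.417 CPM and Ces2a 0.112 CPM in any pituitary, too little to test.

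Ptgs2 and Lhcgr were the transcripts of ovulation and of the LH-responsive cells against which the members were set. Ptgs2 was at 0.104 to 1.81 CPM in stressed ovaries (median 0.478) and at 0.454 to 33.3 CPM in controls (median 1.05), which is 2 to 31 and 7 to 681 counts. Ptgs2 fell by 2.09 ± 0.41 on the log2 scale in the mean of the 4 sets (edgeR, adjusted p = 0.000741; below the control mean in 15 of 16 stressed ovaries). Its arms overlapped in all 4 sets, and it passed the test in 2M-12W alone. The folds were -0.72 ± 0.74 in 6M-8W and -2.35 ± 0.87 in 6M-12W (edgeR, adjusted p = 0.695 and 0.0748). In 2M-12W Ptgs2 was at 0.469, 0.607, 0.203 and 0.577 CPM in stressed ovaries, against 3.78, 12.6, 0.454 and 33.3 CPM in controls (edgeR, adjusted p = 0.00131). The high controls 2 and 4 of that set were also the highest for Adcyap1, Wnt10a and Akr1b7. In 2M-8W, where Adcyap1 and Wnt10a had separate arms, Ptgs2 was at 0.174, 0.533, 0.400 and 0.435 CPM in stressed ovaries, against 0.536, 0.675, 0.606 and 0.506 CPM in controls (edgeR, adjusted p = 0.743). Lhcgr was at 130 to 666 CPM in stressed ovaries (median 256) and at 233 to 727 CPM in controls (median 373). Lhcgr fell by 0.66 ± 0.19 on the log2 scale in the mean of the 4 sets (edgeR, adjusted p = 0.0137; below the control mean in 12 of 16 stressed ovaries). In 2M-8W the LH receptor transcript was at 209, 153, 134 and 254 CPM in stressed ovaries, against 727, 364, 584 and 605 CPM in controls, with no overlap (-1.60 ± 0.38, edgeR, adjusted p = 0.0195). The other 3 sets did not pass the test, and in 6M-8W the fold was 0.35 ± 0.37 (edgeR, adjusted p = 0.705). Lhcgr was at 645, 666, 437 and 130 CPM in 6M-8W stressed ovaries and at 342, 245, 373 and 515 CPM in controls. Here, as for Ces2a, stressed ovary 4 was the lowest library of the set and the other stressed ovaries lay above the control mean.

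To see whether the genes vary together beyond the difference between groups, the mean of its group was taken from each library's log2 CPM, and the deviations were correlated over the 31 ovary libraries. The 35 relations were Ptgs2 with each member, Lhcgr with each member and the 21 pairs of members. P values came from 100000 permutations of libraries within groups, two-sided, and were adjusted over the 35 relations. Of these, 4 passed by Pearson's r and 4 by Spearman's rho. The libraries share the tissue and the sequencing, so a relation between deviations does not separate cell content from expression.

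Ces2a followed Lhcgr and not Ptgs2. With Lhcgr its deviations had r = 0.784 (permutation test, adjusted p = 0.00455) and rho = 0.771 (permutation test, adjusted p = 0.00402), and r was 0.655 to 0.895 within the 4 sets. Without the 2 libraries farthest from the median of Lhcgr (2M-12W control 3 and 6M-8W stressed 4) r was 0.656 (permutation test, adjusted p = 0.0490). The relation passed with each single library left out. Taken alone, neither the 16 stressed ovaries (r = 0.838, permutation test, adjusted p = 0.317) nor the 15 controls (r = 0.689, permutation test, adjusted p = 0.123) passed. With Ptgs2 the r of Ces2a was -0.09. No other member passed with Lhcgr, and their r ran from -0.19 for Akr1b7 to 0.114 for Adcyap1.

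Adcyap1, Wnt10a and Akr1b7 varied together. Adcyap1 and Wnt10a had r = 0.743 (permutation test, adjusted p = 0.00175) and rho = 0.755 (permutation test, adjusted p = 0.00140), with 0.734 to 0.801 within the sets, and passed with each single library left out. Wnt10a and Akr1b7 had r = 0.789 (permutation test, adjusted p = 0.0170) and rho = 0.689 (permutation test, adjusted p = 0.0265). Within the sets its r was 0.253 in 6M-12W and 0.602 to 0.896 in the other 3. Adcyap1 and Akr1b7 had r = 0.625 (permutation test, adjusted p = 0.0240) and rho = 0.638 (permutation test, adjusted p = 0.0312). Within the sets this r was 0.215 in 6M-12W and 0.639 to 0.737 in the other 3. Without 6M-8W control 3, which was low in all 3 genes, the pairs with Akr1b7 no longer passed (permutation test, adjusted p = 0.0789 with Wnt10a and 0.123 with Adcyap1). Without the 2 libraries farthest from the median, r was 0.714 for Adcyap1 with Wnt10a (permutation test, adjusted p = 0.0490), 0.681 for Wnt10a with Akr1b7 (0.0490) and 0.605 for Adcyap1 with Akr1b7 (0.279). Among controls alone these 3 relations passed, with r of 0.873, 0.926 and 0.829. Among stressed ovaries, in which the 3 transcripts were low, r was 0.511, 0.253 and 0.132 and 0 of the 35 relations passed. The difference between the arms was not tested.

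Ptgs2 passed with 0 of the 7 members. Its highest r were 0.593 with Akr1b7 (permutation test, adjusted p = 0.459) and 0.588 with Wnt10a (permutation test, adjusted p = 0.273), and without the 2 farthest libraries these were 0.371 and 0.324. Atp12a, Sema3d and Cacna1c passed with no other member. Their r with the other members ran from -0.11 to 0.37 for Atp12a, 0.02 to 0.21 for Sema3d and 0.09 to 0.53 for Cacna1c.

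**Figure D3:**
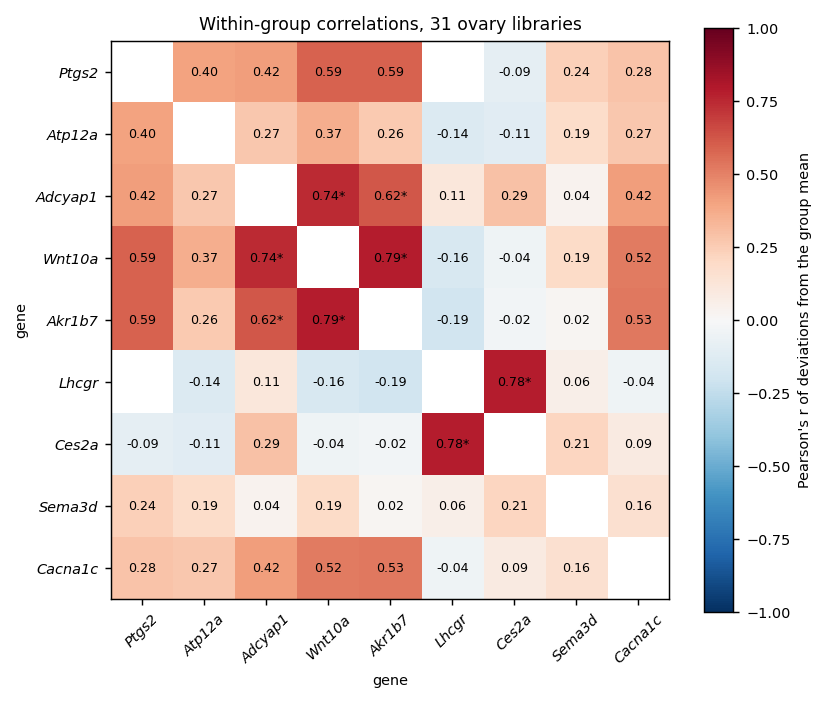
Pearson's r between the deviations of 2 genes from their group means over the 31 ovary libraries (colour scale from -1 to 1), with the genes along both axes, and an asterisk where the permutation p adjusted over 35 relations was under 0.05. The block of Adcyap1, Wnt10a and Akr1b7 and the pair of Ces2a and Lhcgr carry the 4 asterisks, and the relation of Ptgs2 with Lhcgr was not among the 35.

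**Figure D4:**
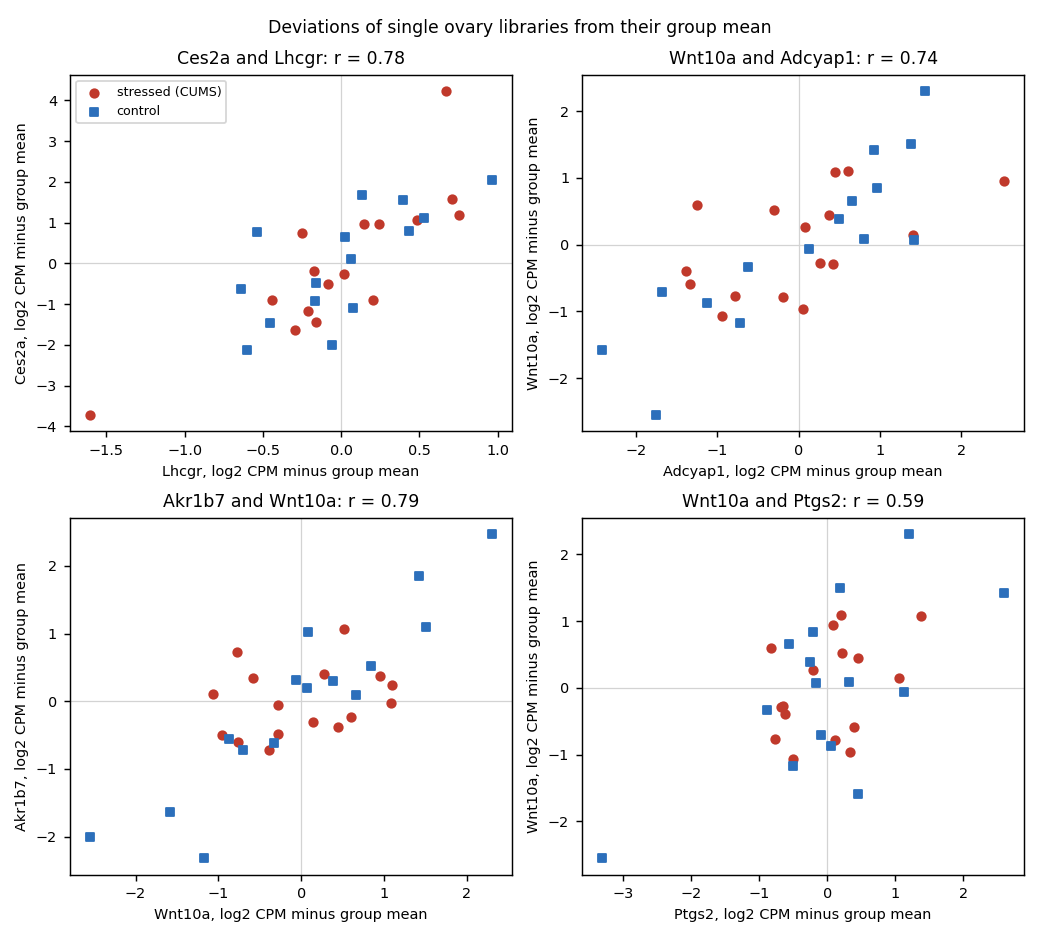
Deviation of each ovary library from its group mean, in log2 CPM on both axes, for 4 pairs of genes, with stressed ovaries as red circles and controls as blue squares. Both arms spread along the diagonal for Ces2a with Lhcgr (r = 0.78), while the spread of Akr1b7 with Wnt10a (r = 0.79) comes mostly from controls.

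The 3 genes whose deviations were most like each member's were sought among 12903 other genes whose log2 CPM averaged 1 or more (Pearson's r over the 31 libraries, given as a description). Predicted genes, pseudogenes and duplicate names were left out. Wnt10a was nearest to the metalloproteinase gene Mmp19 (r = 0.876), to Tspan11 (0.868) and to Wnt4 (0.866). Akr1b7 was nearest to Mmp19 as well (0.844), then to Antxr2 (0.827) and Pcsk5 (0.818). Adcyap1 was nearest to Thsd7b (0.854), Prss35 (0.849) and Phb2 (0.836). For Ces2a these were Baiap3 (0.919), the steroid and cholesterol enzyme gene Hsd17b7 (0.916) and Dpysl4 (0.890), and Lhcgr took rank 27. Atp12a was nearest to the interleukin receptor gene Il4ra (0.817), Sema3d to Megf10 (0.872) and Cacna1c to Sh3d19 (0.796), followed by Gda, Basp1 and Nrp2 and then by Adam12, Podnl1 and Mef2d. Ptgs2 was too low to be among the compared genes, and its r would rank between 242 (for Akr1b7) and 7606 (for Ces2a). The 99th percentile of r over all compared genes was 0.509 for Atp12a, the lowest of the 7 members, and 0.723 for Wnt10a, the highest.

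Relatives of the 7 genes were tested in the ovary in the mean of the 4 sets, in 8 lists of related receptors, ligands, subunits and enzymes. Of 126 listed genes 96 were tested and 25 passed edgeR's test (9 higher and 16 lower in stressed ovaries), which is 26.0%, against 20.3% of all 17766 genes (8.86% higher and 11.5% lower). Members themselves are not in these lists.

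Among the 6 tested genes of the PACAP list 2 fell and 0 rose. Adcyap1r1, the PACAP-preferring receptor, was at 8.52 ± 2.41 CPM in stressed and 13.3 ± 6.17 CPM in control ovaries (SD, n = 16 and 15; log2 fold -0.52 ± 0.18, edgeR, adjusted p = 0.0383). This call was lost in 15 of 36 alternatives. Vipr2, a receptor shared by PACAP and VIP, was at 0.520 ± 0.299 CPM in stressed and 1.01 ± 0.524 CPM in control ovaries (-0.95 ± 0.30, edgeR, adjusted p = 0.0228). Adcyap1r1 did not follow the ligand in each set, with a fold of 0.05 in 6M-12W.

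Of the 12 Wnt ligands tested 3 fell and 0 rose. Wnt4, a ligand needed for ovarian differentiation, was at 142 ± 44.0 CPM in stressed and 250 ± 83.0 CPM in control ovaries (-0.84 ± 0.14, edgeR, adjusted p = 0.000179; below the control mean in 16 of 16). Wnt10b, the closest relative of Wnt10a, had a log2 fold of -1.64 ± 0.36 (edgeR, adjusted p = 0.00193), with folds of -2.81 in 6M-12W and 0.05 in 6M-8W. Wnt6 had a fold of -0.57 ± 0.15 (edgeR, adjusted p = 0.00875), below the control mean in 11 of 16. Of the 21 receptors, secretion factors and feedback targets 1 rose and 5 fell. The frizzled receptors Fzd1 (-0.73 ± 0.19) and Fzd5 (-0.29 ± 0.08) fell, and Fzd2 rose (0.29 ± 0.08; edgeR, adjusted p of 0.00743 to 0.00862 for the 3). The R-spondin receptor Lgr5 (-0.44 ± 0.16, adjusted p = 0.0464 in edgeR) lost its call in 23 of 36 alternatives. Axin2 and Porcn are named after their values were seen. Axin2, a feedback target of canonical signalling, passed at -0.26 ± 0.09 (edgeR, adjusted p = 0.0484). The Wnt acyltransferase gene Porcn passed at -0.44 ± 0.16 (edgeR, adjusted p = 0.0486).

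For ion transport, 14 pump subunits were tested, of which 2 rose and 2 fell. The FXYD regulators of the sodium pump moved apart. Fxyd6 rose by 0.51 ± 0.07 (edgeR, adjusted p = 2.43e-05) and Fxyd1 by 0.41 ± 0.09 (edgeR, adjusted p = 0.00191), while Fxyd5 fell by 0.59 ± 0.11 (edgeR, adjusted p = 0.000398; below the control mean in 16 of 16). Of 14 calcium channel subunits 2 rose and 1 fell. Cacna1d, another L-type pore gene, was at 61.5 ± 15.0 CPM in stressed and 43.9 ± 15.8 CPM in control ovaries (0.46 ± 0.13, edgeR, adjusted p = 0.0114). It lay above the control mean in 16 of 16 stressed ovaries. Cacna1c lay below in 16 of 16, a direction that follows from how it was chosen. The share of all genes with 16 of 16 on the same side was not counted, here or for the other relatives. The auxiliary subunit genes went in opposite directions, with Cacnb4 at 0.54 ± 0.12 (edgeR, adjusted p = 0.00319) and Cacnb3 at -0.49 ± 0.08 (edgeR, adjusted p = 8.02e-05).

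The semaphorin list had 2 of 13 genes higher and 2 lower. Sema3b (0.49 ± 0.08, adjusted p = 8.13e-05 in edgeR) and Sema3g (0.33 ± 0.10, adjusted p = 0.0167 in edgeR) rose. Nrp2, a co-receptor for class 3 semaphorins, was at 151 ± 13.0 CPM in stressed and 186 ± 28.9 CPM in control ovaries (-0.31 ± 0.06, edgeR, adjusted p = 0.00108; below the control mean in 16 of 16). Sema3f (-0.30 ± 0.10, adjusted p = 0.0332 in edgeR) fell but lost its call in 8 of 36 alternatives. Among enzymes related to Akr1b7, 1 of 12 rose and 1 fell. The close relative Akr1b8 was at 51.4 ± 9.05 CPM in stressed and 66.5 ± 13.2 CPM in control ovaries (-0.37 ± 0.08, edgeR, adjusted p = 0.00311), and Akr1cl rose by 0.29 ± 0.08 (edgeR, adjusted p = 0.00797). Of 18 carboxylesterase genes 4 could be tested and 1 rose, Ces2e (0.36 ± 0.12, edgeR, adjusted p = 0.0380), a call lost in 19 of 36 alternatives.

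**Figure D5:**
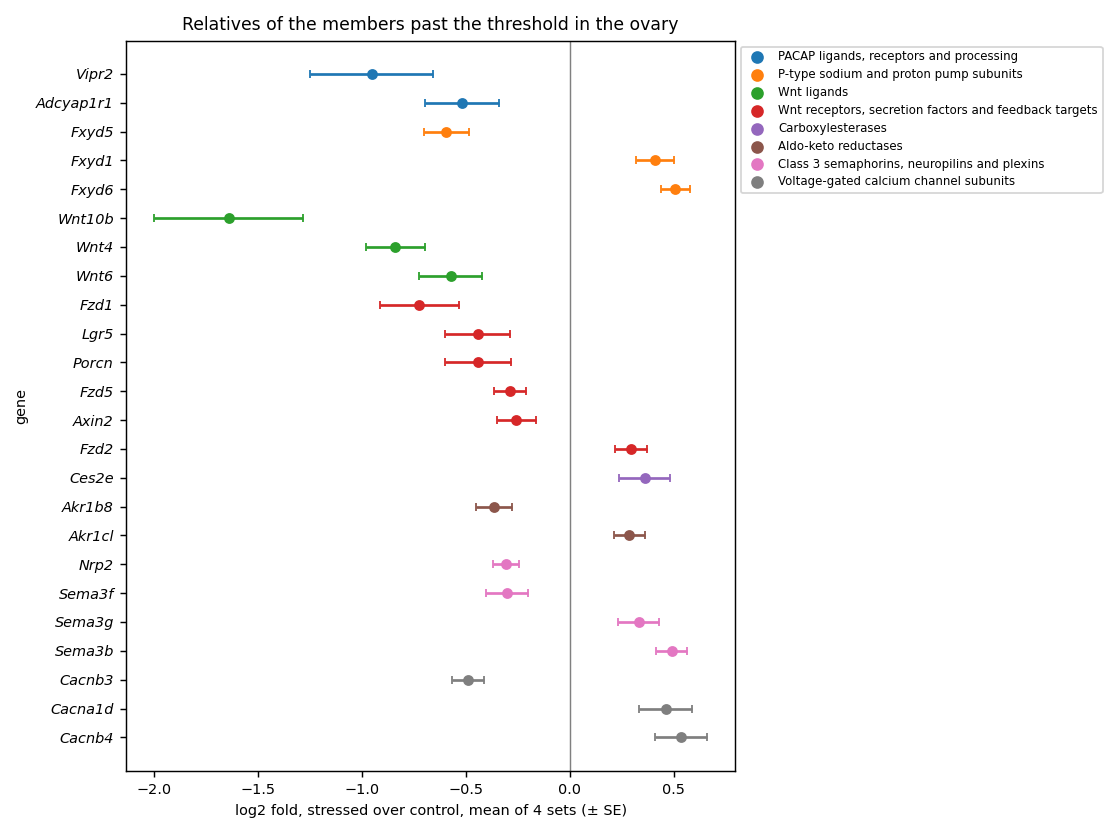
Log2 fold, stressed over control, in the mean of the 4 ovary sets ± SE (x axis) for 24 of the 25 relatives that passed edgeR's test (y axis), coloured by list. The 3 Wnt ligands and 2 PACAP receptors that passed lie left of 0. Their lists had 12 and 6 genes tested. The pump, semaphorin and calcium channel lists have genes on both sides.

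Marker levels of other ovarian cell types and of the adrenal cortex differed between the arms as well, and their part in the members' results was not tested. The summed level of 12 ovulatory transcripts was 93.1 to 307 CPM in stressed ovaries (median 140) and 173 to 1072 CPM in controls (median 386). That of 9 luteal markers was 9331 to 25330 CPM in stressed (median 13733) and 13396 to 25277 CPM in control ovaries (median 17244), and no marker of either list was at 0 in all ovaries. Granulosa, theca and oocyte markers lay the other way. The 8 granulosa markers summed to 2820 to 6842 CPM in stressed ovaries (median 4627) and 1961 to 6432 CPM in controls (median 3100), and the 6 theca markers to 2685 to 4711 CPM in stressed ovaries (median 3841) and 1699 to 4805 CPM in controls (median 2335). In 6M-12W both sums were higher in every stressed ovary than in any control, with 5421 to 6842 against 3466 to 3891 CPM for granulosa and 3750 to 4696 against 1806 to 3210 CPM for theca markers. In this set 16.1% of all tested genes had every stressed ovary below every control, and the share with every stressed ovary above was not counted. Nothing is read from this separation. The 8 oocyte markers summed to 172 to 445 CPM in stressed ovaries (median 380) and 104 to 376 CPM in controls (median 269). Of 4 adrenal cortex markers, a tissue in which Akr1b7 is abundant, the summed level was 0.0801 to 1.33 CPM in stressed and 0.302 to 21.4 CPM in control ovaries. In the controls with the highest sums nearly all of it was Cyp11b1. Its level was 17.5 CPM in control 2 of 2M-8W, 21.2 and 13.3 CPM in controls 2 and 4 of 2M-12W and 17.02, 17.9 and 18.9 CPM in controls 1, 2 and 4 of 6M-8W, and at most 2.78 CPM in any other ovary. These libraries were also high in Adcyap1 and Wnt10a. The match was not complete, since control 4 of 2M-8W had 19.7 CPM of Adcyap1 and 2.78 CPM of Cyp11b1. The defining adrenal transcripts Cyp21a1 and Cyp11b2 and the ACTH receptor transcript Mc2r had at most 3, 2 and 9 counts in any ovary.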

How the data were processed

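RNA-seq of 31 ovary and 32 pituitary libraries was analysed. Per the labels' protocols, RNA came from a chloroform extraction and the libraries from a NEBNext Ultra II kit. No source used here names the aligner, the counter or the annotation or says whether strand was used. The authors deposited raw read counts for each gene together with FPKM values scaled by library total and gene length. Every library has a column of each and none was left out.

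The members and all gene lists were chosen with earlier results of these data known. Each tissue was fitted with its 8 groups in 1 model (edgeR 4.0.16 quasi-likelihood F test, filterByExpr, TMM scaling, R 4.3.3), leaving 17766 ovary and 17001 pituitary genes. Stress was set against control in each set and averaged over the 4 sets. The threshold was a Benjamini-Hochberg adjusted p under 0.05 over all genes, and the SE is the fold divided by the square root of F. Log2 CPM used a prior count of 2. Correlations used deviations from group means and 100000 permutations. Beside the members, Ptgs2 and Lhcgr, genes were named by rule: at most 4 per list with the smallest p past the threshold and the 3 most alike to each member. On simulated counts for the mean of the 4 sets (17558 ovary genes) 99% of changes of 2 times were recovered, with 2.93% false calls. No 2 libraries of a group were the same (93 pairs). Alternatives were RLE scaling, no filter, own groups only, DESeq2 1.42.0, a replicate block, another prior count, FPKM, 2 ovaries left out and each library left out. The result of 1 gene that the rule names is not reported here.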

Additional observations from a re-analysis of the deposited data

Results flagged for a closer look

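In 7 of 63 groups of 4 ovary libraries examined (7 members, Ptgs2 and Lhcgr), 1 library stood far from the other 3 by Dixon's ratio. For independent values with a normal spread chance alone gives about 1 in 20. This rate is only a rough guide here, since CPM were not put on a log scale and the genes share libraries. All 7 were the highest library of their group. Of these, 4 came from stressed ovary 1 of 2M-12W. It had 4.75 CPM of Adcyap1, with the others at 0.233 to 0.770 CPM, and 16.9 CPM of Ces2a, with the others at 0.192 to 0.304 CPM. It also had 24.2 CPM of Sema3d (others 7.47 to 8.90 CPM) and 396 CPM of Lhcgr (others 203 to 223 CPM). Control ovary 3 of 2M-12W had 116 CPM of Ces2a, with the others at 14.9 to 20.01 CPM. In 6M-12W stressed ovary 4 had 1.21 CPM of Ces2a (others 0.374 to 0.494 CPM), and stressed ovary 2 had 0.747 CPM of Ptgs2 (others 0.104 to 0.180 CPM).

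Directions that every stressed library of a set shared differed between tissues or sets in 4 cases, and these differences were not tested. The search covered all pairs of sets within a tissue and both tissues within each set. The share of all genes with such differences was not counted. Atp12a was below its control mean in 4 of 4 stressed ovaries and above it in 4 of 4 stressed pituitaries in 2M-8W (log2 folds -3.62 and 0.10, a difference of -3.72) and in 6M-8W (-2.53 and 0.79, a difference of -3.32). These counts use means of log2 CPM. In 2M-8W the pituitary libraries overlapped, at 0.529 to 0.741 CPM in stressed and 0 to 1.22 CPM in control pituitaries, and the pituitary fold was -0.33 without control 1, the library with 0 counts. Cacna1c in 6M-12W was below in all stressed ovaries (-0.41) and above in all stressed pituitaries (0.43), a difference of -0.84. In the pituitary Cacna1c was above its control mean in 4 of 4 stressed libraries of 6M-12W and below it in 4 of 4 of 6M-8W (0.43 and -0.18, a difference of 0.60). The pituitary arms of 6M-8W overlapped for Cacna1c (edgeR, adjusted p = 0.428) and for Atp12a (edgeR, adjusted p = 0.479). The ovary directions follow from how the genes were chosen.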

How the results depend on the processing

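With each library left out in turn, the ovary counts of called genes ran from 36 to 1673 in 2M-8W, from 332 to 1724 in 2M-12W, from 4 to 336 in 6M-8W, from 550 to 2266 in 6M-12W and from 2748 to 3997 in the mean of the 4 sets. The pituitary counts ran from 41 to 81, 34 to 178, 436 to 994 and 22 to 92 in the sets and 918 to 1253 in the mean. Relatives called ran from 8 to 13 higher and 11 to 17 lower, and correlations called from 2 to 4. The ovary counts were 1113 and 1197 in the 2-month sets (8 and 12 weeks) and 199 and 2032 in the 6-month sets. They became 2 (2M-8W), 0 (2M-12W) and 99 (6M-8W) in fits of own groups alone, 84 in 6M-8W with no filter, 0 in 2M-8W without stressed ovaries 1 and 3, and with DESeq2 1699 in 2M-8W and 607 in 6M-8W. The pituitary counts of 72, 99 and 47 in 2M-8W, 2M-12W and 6M-12W became 116, 228 and 142 with DESeq2, and 18 and 7 in 2M-8W and 6M-12W with own groups alone. The cause was not tested. The 4 correlations called became 0 in stressed ovaries alone. Within single sets r alone was computed, since too few libraries remain for the adjusted threshold. The Sema3d fold in 6M-8W of 0.59 ran from -0.38 (without stressed ovary 3) to 1.31 (without control 3), the 1 ovarian fold of a member to change direction under the alternatives run.

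Whether the replicate numbers pair the libraries was not tested. Deviations of same-numbered stressed and control libraries correlated above 0.1 in 3 of 15 ovary pairs (r of -0.20 to 0.28). The same held for 3 of 16 pituitary pairs (r of -0.10 to 0.24). With the replicate number as a block the ovary counts were 125 and 784 in 2M-8W and 2M-12W, and 28 and 662 in 6M-8W and 6M-12W. Fzd2, Lgr5, Ces2e and Sema3f did not pass (edgeR, adjusted p = 0.0520, 0.0590, 0.0925 and 0.0536). Wnt10a in the pituitary passed (adjusted p = 0.0375 in edgeR for the mean and 0.0227 in 6M-8W). Correlations called were 7, the 4 and Ptgs2 with Wnt10a (r = 0.683), Adcyap1 with Cacna1c (0.803) and Akr1b7 with Cacna1c (0.709). However, the block makes the stressed and control deviations of a pair mirror images, which the permutations did not keep. Their p values are too small with the block, so the calls made with it are not relied on. Depth limits the Ces2a level in 2 of the 2M-8W stressed ovaries, where 0 counts were found.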
